A study of Mus musculus with 435 samples.

Results

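The cells described here are single cells from XY mouse gonads at the embryonic stages E11.5 and E12.5, the day over which the testis cords take shape. They were chosen by stage and capture alone: all cells of the 2 captures labelled E12.5 against all cells of the 2 captures labelled E11.5, 160 of the 396 cells kept from the whole series. Both groups have the genotype NR5A1-eGFP on a mixed background, and the E11.5 and E12.5 cells carry the same reporter, so there is no group without it. The gonads were dissociated with trypsin, eGFP-positive cells were sorted, and Draq7, a dye taken up by dead cells, was used to leave dead cells out. Cells were caught on small Fluidigm C1 chips, where each well gives 1 library from 1 cell, and the labels give 10 M reads of 100 bp pairs for each. The eGFP is driven by Nr5a1, so the sort holds the Nr5a1-expressing somatic cells of the gonad and may hold any other cell that glows. How many embryos or litters went into a capture is not given in the labels, so the p-values below measure only the spread between captures, which may be technical.

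As background, the XY gonad starts as a bipotential ridge of somatic cells under a coelomic epithelium. In supporting cells Sry turns on Sox9 for a short window, and these cells become Sertoli cells, which secrete anti-Müllerian hormone and desert hedgehog, gather around germ cells and enclose them in cords within a basement membrane. The cells left outside the cords form the interstitium, in which desert hedgehog from Sertoli cells acts through Ptch1 and the Gli factors to support fetal Leydig cells, the source of androgen.

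The first and second E11.5 captures held 52 and 41 cells, and the first and second E12.5 captures held 30 and 37, with captures numbered by date. Cells had a median of 4959.5, 5668, 5284.5 and 5634 genes above 0, and the depth implied by the smallest steps of the values was a median of 2.21, 2.75, 3.24 and 3.1 M reads per cell. All 4 captures were read in 1 sequencing run, each over 8 lanes, so the stages are not split by run. The reporter was listed at 1 RPKM (reads scaled by transcript length and by library depth) or more in 49 of 52, 38 of 41, 27 of 30 and 37 of 37 cells, and Nr5a1 itself in 38, 32, 21 and 34. In the second E12.5 capture, wells 49 and 56 correlated at 0.998, where the next closest pair of cells reached 0.632, and they were averaged and counted as 1 cell.

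The second E12.5 capture stood apart in a run of neighbouring wells. Dppa3, a germ cell gene, was detected (1 RPKM or more) in all 13 cells of wells 30 to 47, at 7.87 to 490 RPKM, in 0 of the 24 cells of its other wells and in 0 of the 123 cells of the other 3 captures. Dazl was detected in 9 of these 13 cells and Ddx4 in 4, and neither was detected in any of the other 147 cells. Of the 22 germ cell markers looked for, 19 were in the file, and all 12 cells of this capture with at least 3 of them lay in these wells. The same 13 cells had a median of 29 of 40 G2 and mitosis genes at 1 RPKM or more (17 to 37), against 13 (4 to 39) in the other wells. They also had eGFP in 13 of 13 cells and Sox9 in 13 of 13, against 21 of 24 for Sox9 in the other wells. What kind of cell these wells hold was not tested. Several results are given with and without these wells, an alternative chosen after the data were seen.

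**Figure D1:**
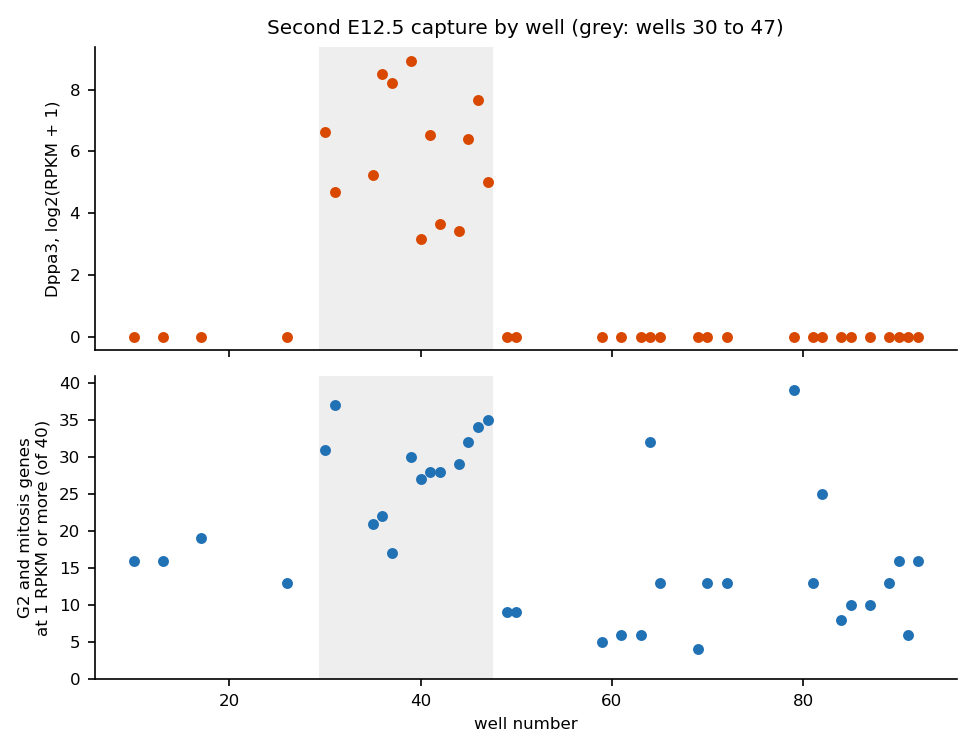
Second E12.5 capture by well number: Dppa3 level as log2(RPKM + 1) (top) and the number of 40 G2 and mitosis genes at 1 RPKM or more (bottom), 1 point per cell, with wells 30 to 47 in grey. Dppa3 is above 0 in the 13 cells of the grey wells and at 0 in the 24 others, and the grey wells hold 17 to 37 G2 and mitosis genes.

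Promoters are shown for a Sertoli ligand (Dhh), a steroid enzyme (Hsd3b1) and a retinoid enzyme (Aldh1a1) with higher levels at E12.5. A pair of neighbouring lipase genes (Pnlip, Pnliprp1) with higher levels at E11.5 is also shown. Aldh1a1, Cst9, Pnlip and Pnliprp1 were added to the genes first planned for this. Each window runs from 250 bases before to 50 bases after the RefSeq start site on GRCm38.p6 and is written 5′ to 3′ on the gene's strand. Of 9 genes sought 6 had a window in the RefSeq table. Amh, Sox9 and Defb19 were the others. The window of Cst9 and the upstream window of Aldh1a1 are not printed. Capitals mark the motifs searched on both strands: AGGTCA (the core of the NR5A1 site), a GATA site (GATA with A or T before it and A or G after it) and a SOX site (ACAAT or ACAAAG), or their reverse complements.
Dhh (chr15:98898491-98898790, minus strand): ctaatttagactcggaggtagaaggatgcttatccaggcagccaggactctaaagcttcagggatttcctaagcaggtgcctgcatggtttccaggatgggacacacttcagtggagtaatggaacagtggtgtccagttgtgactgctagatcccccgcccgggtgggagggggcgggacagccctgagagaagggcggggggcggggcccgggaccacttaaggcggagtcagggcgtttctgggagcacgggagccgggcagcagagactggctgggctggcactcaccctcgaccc
Hsd3b1 (chr3:98859745-98860044, minus strand): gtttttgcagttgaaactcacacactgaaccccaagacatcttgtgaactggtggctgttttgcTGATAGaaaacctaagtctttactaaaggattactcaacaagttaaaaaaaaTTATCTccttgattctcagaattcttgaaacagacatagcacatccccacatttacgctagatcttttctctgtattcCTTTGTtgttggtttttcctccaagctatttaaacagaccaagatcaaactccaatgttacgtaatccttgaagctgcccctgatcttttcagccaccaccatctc
Aldh1a1, the downstream of its 2 windows (chr19:20601718-20602017, plus strand): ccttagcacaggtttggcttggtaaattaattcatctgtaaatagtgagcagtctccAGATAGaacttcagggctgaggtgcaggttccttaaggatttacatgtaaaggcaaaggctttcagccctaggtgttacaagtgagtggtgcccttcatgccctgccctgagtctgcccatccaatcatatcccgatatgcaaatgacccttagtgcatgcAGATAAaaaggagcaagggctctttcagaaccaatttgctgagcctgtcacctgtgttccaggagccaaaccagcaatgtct
Pnlip (chr19:58670115-58670414, plus strand): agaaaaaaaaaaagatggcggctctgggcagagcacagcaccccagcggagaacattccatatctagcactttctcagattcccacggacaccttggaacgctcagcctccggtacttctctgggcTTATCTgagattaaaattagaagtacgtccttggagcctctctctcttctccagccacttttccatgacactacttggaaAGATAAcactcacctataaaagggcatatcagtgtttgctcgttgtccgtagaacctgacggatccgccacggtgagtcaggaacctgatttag
Pnliprp1 (chr19:58728637-58728936, plus strand): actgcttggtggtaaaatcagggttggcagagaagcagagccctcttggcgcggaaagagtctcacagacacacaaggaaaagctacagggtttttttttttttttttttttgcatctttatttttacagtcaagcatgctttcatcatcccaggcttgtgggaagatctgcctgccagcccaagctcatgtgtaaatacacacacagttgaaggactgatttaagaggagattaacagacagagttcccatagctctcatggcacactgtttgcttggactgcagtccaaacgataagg

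The Hsd3b1 window held 2 GATA sites, at -186 and -134 from the start site, and 1 SOX site at -56. The printed Aldh1a1 window held 2 GATA sites, at -193 and -32, and Pnlip 2, at -124 and -44. None of the 3 motifs was found in the windows of Dhh and Pnliprp1, and AGGTCA was in none of the 5. Of the windows not printed, that of Cst9 held 2 GATA and 2 SOX sites. The upstream Aldh1a1 window held 1 GATA and 1 SOX site, and neither held AGGTCA. Of all 32851 windows of 300 bases, 29.8% held a GATA site, 42.9% a SOX site and 16.3% AGGTCA. These are matches of letters only. The Pnlip and Pnliprp1 windows start 58522 bases apart on chromosome 19.

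No gene passed the test of E12.5 against E11.5. The mean RPKM over the cells of a capture was taken as 1 value, log2(mean + 1) was fitted with limma across the 9 captures of the series, and 0 of 12313 genes had a Benjamini-Hochberg adjusted p under 0.05 in either direction (percent called 0). The smallest adjusted p was 0.149, shared by Vnn1, Aldh1a1 and Wfdc13. The spread behind each SE and p draws on all 9 captures, and those outside the 10 M read run are labelled with more reads per cell. With the 6 captures of that run alone, the smallest adjusted p in limma was 0.134. With the 4 captures compared here alone it was 0.565, and no gene passed in either fit. With all 9 captures, 961 genes had an unadjusted p under 0.05, 483 higher at E12.5 (3.92%) and 478 lower (3.88%). By a looser description, both E12.5 captures above both E11.5 captures by a fitted difference of at least 1 log2 unit, 866 genes were higher (7.03%) and 966 lower (7.85%), and at any size 18.6% and 19.4% did not overlap. With 2 captures against 2, an exact permutation test of 1 gene cannot give a two-sided p below 0.333. Differences below are E12.5 minus E11.5 in log2(mean RPKM + 1) with the standard error (SE) from limma, adjusted p are limma's over all 12313 genes, and "higher" or "lower" describes values that did not pass. In a mean over cells, fewer cells with a gene and less of its RNA per cell cannot be told apart, so the number of cells with the gene is given where it matters.

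**Figure D2:**
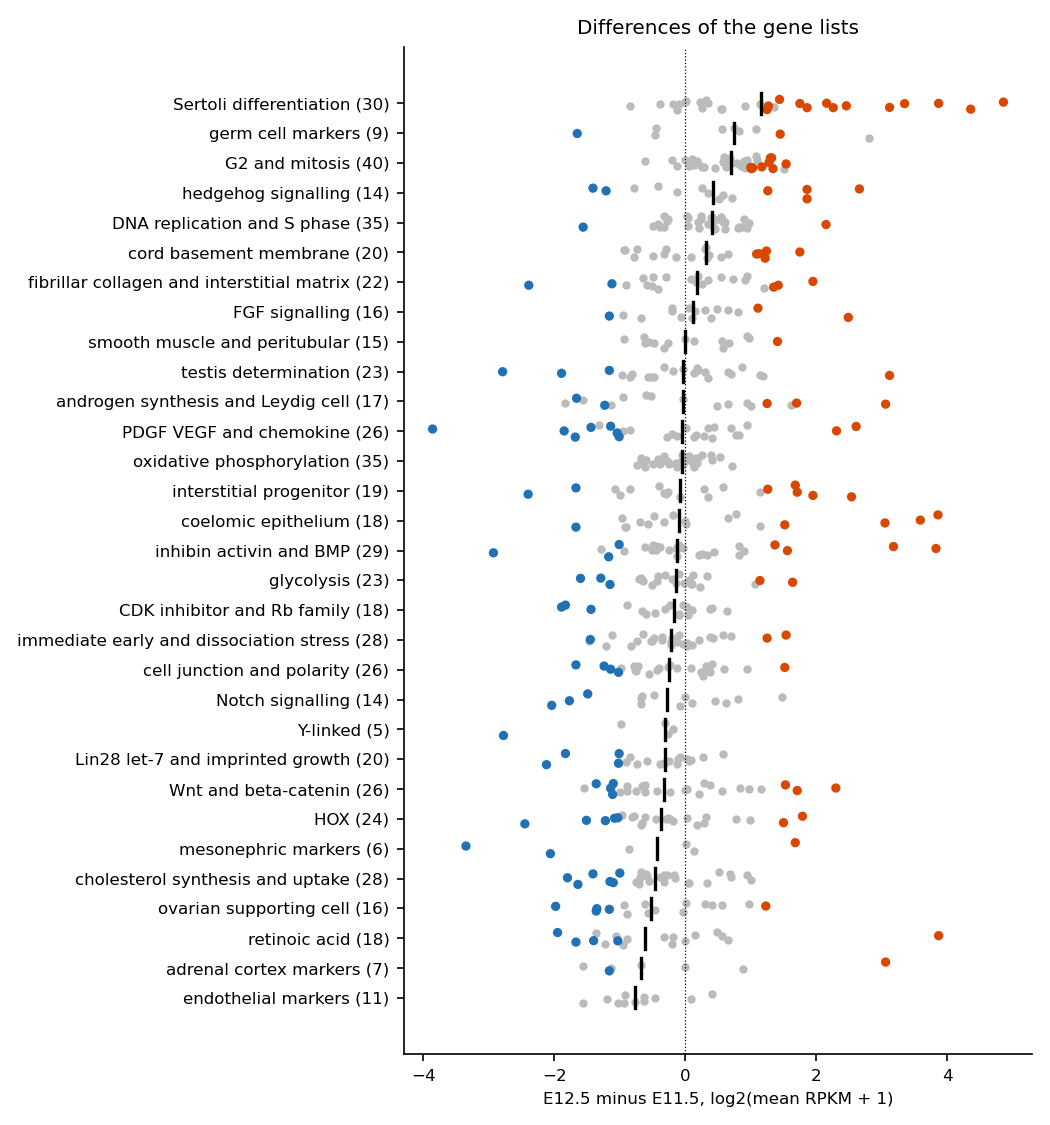
Differences of E12.5 minus E11.5 in log2(mean RPKM + 1) for the members of each gene list with at least 5 genes tested (number in brackets), 1 point per gene, with the list's median as a bar and the median of all genes as a dotted line. Coloured points lie at least 1 log2 unit from 0 with no overlap between the captures of both stages, and the Sertoli list has the highest median, 1.16.

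Sertoli genes had higher capture means at E12.5. Of 30 Sertoli differentiation genes tested, 25 had a difference above 0, with a median of 1.16 against -0.01 over all genes. Of the 30, 13 were at least 1 log2 unit higher without overlap, where 7.03% of all genes were, and 0 were lower, and none passed after adjustment. This list and those below were chosen with earlier results of these data known, so the shares are a description only. The summed level of the list was 336 and 512 RPKM at E11.5 and 1415 and 1687 RPKM at E12.5. The median number of list genes detected per cell was 3 and 3 at E11.5 and 3 and 8 at E12.5. By this count the first E12.5 capture did not differ from E11.5. Without the second E12.5 capture the list's median difference was 0.69. Without wells 30 to 47 the median was 1.22, again with 13 higher and 0 lower.

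Defb19, a beta-defensin gene of Sertoli cells, averaged 3.53 and 2.96 RPKM in the E11.5 captures and 57.7 and 258 RPKM in the E12.5 captures. Both E12.5 captures lay above both E11.5 captures, by 4.86 ± 0.82 log2 units (SE, adjusted p 0.161). It was detected in 3 of 52 and 6 of 41 cells at E11.5 and in 9 of 30 and 25 of 37 at E12.5. The mean over positive cells was 61.2 and 20.1 RPKM at E11.5 and 192 and 382 RPKM at E12.5. These means rest on few cells or on single high ones, and the cells overlapped. The 3 positive cells of the first E11.5 capture held 1.84, 90.7 and 91.2 RPKM. Those of the first E12.5 capture ran from 8.14 to 732 RPKM, and 1 cell of the second reached 2783 RPKM.

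Cst9, a cystatin gene used as a marker of early Sertoli cells, averaged 6.03 and 42 RPKM at E11.5 and 515 and 246 RPKM at E12.5 (4.36 ± 1.19, adjusted p 0.413). It was detected in 4 of 52 and 11 of 41 cells at E11.5 and in 13 of 30 and 20 of 37 at E12.5. The highest cell of the first E12.5 capture held 9498 RPKM, so much of the mean over its 30 cells came from 1 cell. In the second, wells 30 to 47 averaged 499 RPKM and the other wells 108 RPKM, so part of its level there lay in the cells with Dppa3.

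Aldh1a1, which makes retinoic acid, averaged 7.07 and 26.9 RPKM at E11.5 and 157 and 304 RPKM at E12.5 (3.87 ± 0.54, adjusted p 0.149). It was detected in 9 of 52 cells (17.3%, Wilson 95% interval 9.38 to 29.7%), 10 of 41, 10 of 30 and 32 of 37 cells (86.5%, 72 to 94.1%). The first E12.5 capture therefore had a share of positive cells (33.3%, 19.2 to 51.2%) whose interval overlaps those of E11.5, with a higher level per positive cell, 471 RPKM against 40.7 and 110 RPKM. Without the second E11.5 capture its limma adjusted p was 0.0338 (0.0338 to 0.565 over 17 alternatives), the lone capture left at that stage being assumed to vary like the others.

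Amh, which makes the Müllerian ducts regress, was listed at 0 in all 93 E11.5 cells and averaged 16.4 and 4.93 RPKM in the E12.5 captures (adjusted p 0.29). It was detected in 5 of 30 and 10 of 37 E12.5 cells. A count of 0 in 52 and in 41 cells allows up to 5.77% and 7.32% of cells with the gene, and such limits and intervals cover counting error only. The capture with fewer Amh cells had the higher level in them, 98.5 against 18.2 RPKM.

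Ptgds, which makes prostaglandin D2, a signal that supports Sox9 in Sertoli cells, averaged 9.28 and 2.16 RPKM at E11.5 and 30 and 77.9 RPKM at E12.5 (3.12 ± 0.70, adjusted p 0.29). Dhh, the hedgehog ligand of Sertoli cells, averaged 1.36 and 0 RPKM, all of it from 1 of 93 cells, and then 2.16 and 8.89 RPKM, from 4 and 10 cells (1.86 ± 0.73, adjusted p 0.587). The first captures of both stages lay close together.

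Other members are named here after their values were seen. Vnn1, a pantetheinase gene of the fetal testis, lay close within each stage, at 22.8 and 26.7 RPKM against 126 and 118 RPKM (2.26 ± 0.35, adjusted p 0.149). Clu, the secreted chaperone clusterin, averaged 29.1 and 21.5 RPKM against 135 and 99 RPKM (2.16 ± 0.49, adjusted p 0.29). Mmd2 and Aard were higher by 1.27 ± 0.48 and 1.75 ± 0.57. Gstm6 had 1 high capture, 98.6 RPKM in the second at E12.5 against 9.57 in the first. Inhibin alpha (Inha) and Inhbb differed by -0.13 ± 0.32 and -0.10 ± 0.60, each with overlapping captures. Fshr, the receptor for follicle-stimulating hormone, was listed at 0 in 3 captures and averaged 0.0113 RPKM in the other.

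**Figure D3:**
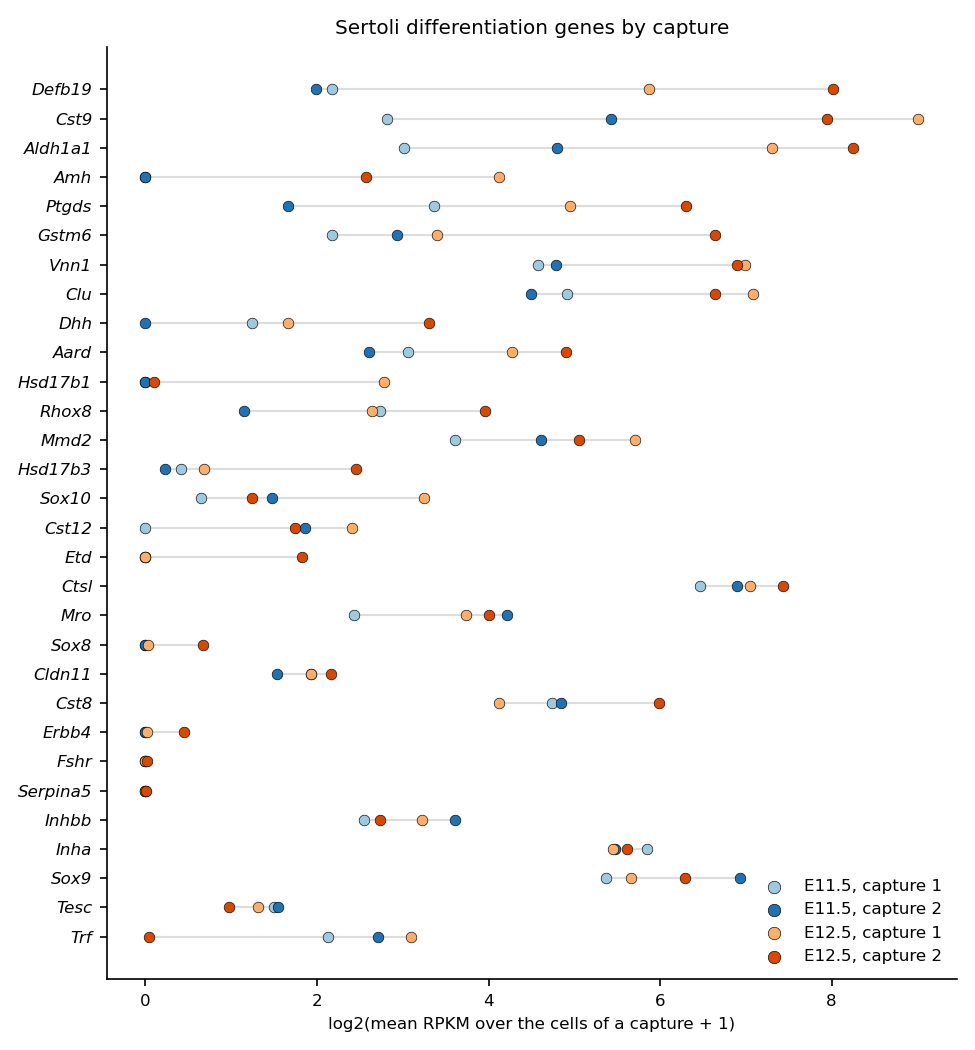
Level of each tested Sertoli differentiation gene in the 4 captures, as log2(mean RPKM over cells + 1), 1 point per capture, ordered by the difference between stages. Defb19, Cst9, Aldh1a1 and Amh at the top have both E12.5 captures to the right of both E11.5 captures, and Sox9 near the bottom has captures of both stages mixed.

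The genes that set up testis fate did not share this pattern. Of 23 testis determination genes tested, 1 was at least 1 log2 unit higher without overlap and 3 were lower (7.03% and 7.85% of all genes), with a median of -0.03.

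Sry averaged 5.89 and 6.11 RPKM at E11.5 and 0 and 0.0165 RPKM at E12.5 (-2.79 ± 0.56, adjusted p 0.231). It was detected in 5 of 52 and 5 of 41 cells and in none of the 67 E12.5 cells, where counts of 0 allow up to 10% and 8.11% of cells.

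Sox9, the target of Sry, averaged 40.4 and 121 RPKM at E11.5 and 49.7 and 77.1 RPKM at E12.5, and the captures overlapped (-0.18 ± 0.50, adjusted p 0.973). The direction turned with the alternative, being 0.55 when log2 values were averaged over cells and 0.60 without the second E11.5 capture. It was detected in 39 of 52, 16 of 41, 16 of 30 and 34 of 37 cells. The shares (75%, 39%, 53.3% and 91.9%) differed more between the captures of a stage than between stages. Ptch1 (27, 11, 16 and 34 cells), Top2a (28, 11, 11 and 35) and Egr1 (46, 13, 25 and 37) also had a higher share in the first E11.5 and second E12.5 captures than in the other capture of the same stage. Where Sox9 was detected in fewer cells it was higher in them, 310 RPKM in the second E11.5 capture against 53.8 RPKM in the first.

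Several factors that act upstream of Sry had lower means at E12.5. Wt1 averaged 163 and 170 RPKM and then 105 and 68.6 RPKM (-0.97 ± 0.34, adjusted p 0.539), and Nr5a1 48.7 and 58.9 RPKM and then 33.2 and 27.3 RPKM (-0.81 ± 0.37, adjusted p 0.645). The eGFP that reports Nr5a1 differed by -0.79 ± 0.33 (-1.27 to -0.02 over the alternatives), from 1802 and 3505 RPKM to 1617 and 1307 RPKM. Its medians over cells overlapped between stages, at 413 and 1412 RPKM and then 659 and 965 RPKM. Gadd45g, which acts on p38 signalling ahead of Sry, averaged 82.3 and 136 RPKM and then 38.1 and 20.2 RPKM (-1.89 ± 0.65, adjusted p 0.525). Nr0b1, an X-linked repressor of testis fate at high dose, averaged 11.6 and 37.5 RPKM and then 7.04 and 11.1 RPKM (-1.16 ± 0.78). Gata4 was 41.9 and 82.1 RPKM and then 35 and 94.6 RPKM, with no direction that held over the alternatives (-0.03 ± 0.49, -0.73 to 0.68).

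**Figure D4:**
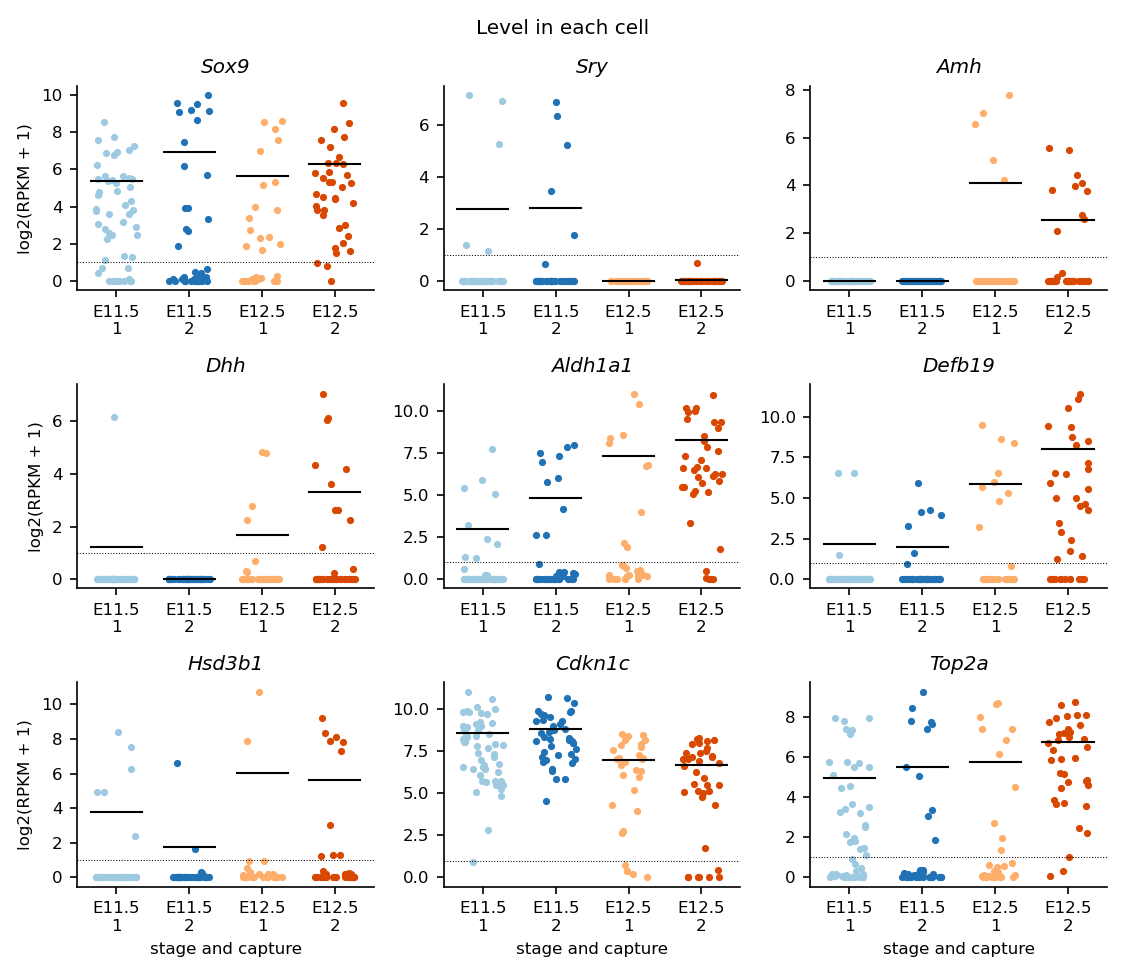
Level of 9 genes in each cell as log2(RPKM + 1), by stage and capture, 1 point per cell, with the capture mean as a bar (log2 of the mean RPKM + 1) and the detection level of 1 RPKM as a dotted line. Amh is at 0 in all E11.5 cells, Sry is below the line in all E12.5 cells, and Cdkn1c cells sit lower at E12.5.

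Within E12.5 captures, Aldh1a1, Defb19 and Dhh were more frequent in Amh-positive cells than in all cells. Of the Amh-positive cells, 5 of 5 and 10 of 10 had Aldh1a1, where 33.3% and 86.5% of all cells of these captures did, and 5 of 5 and 9 of 10 had Defb19, where 30% and 67.6% did. Dhh was found in 3 of 5 and 5 of 10, where 13.3% and 27% of all cells had it. Sox9 was found in 5 of 5 and 9 of 10 Amh-positive cells. In all cells its share was 53.3% and 91.9%, so the second capture showed no excess. Gli1, which marks cells that respond to hedgehog, was found in 0 of 5 and 1 of 10 Amh-positive cells, beside 20% and 29.7% of all cells. These are counts of cells within a capture, which share its depth, and are given as a description.

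Hedgehog genes were higher at some steps of the pathway and lower at others. Of 14 tested, 4 were at least 1 log2 unit higher without overlap (28.6%, against 7.03% of all genes) and 2 were lower (14.3%, against 7.85%), with a median of 0.43. Without the second E11.5 capture 4 were higher and 4 lower. On the receiving side, Ptch1, the receptor and a target of the pathway, averaged 6.79 and 3.93 RPKM at E11.5 and 10.2 and 18.8 RPKM at E12.5 (1.26 ± 0.55, adjusted p 0.625). Hhip, a decoy receptor that is also a target, was 0.168 and 0.00149 RPKM and then 2.6 and 11.9 RPKM (2.66 ± 1.04), with 2 cells at E11.5 and 3 and 16 at E12.5. Gli2, an effector, averaged 5.26 and 1.88 RPKM and then 12.6 and 16.4 RPKM (1.86 ± 0.69). Gli1, the usual target readout, overlapped (1.61 and 1.2 against 0.913 and 5.75 RPKM, 0.58 ± 0.74), and without the second E12.5 capture it was -0.33. Sufu, which holds the Gli factors back, averaged 13.9 and 6.1 RPKM and then 2.14 and 3.8 RPKM (-1.41 ± 0.67). Gas1, a co-receptor, was lower by the same description (-1.21 ± 0.49; named after its values were seen). Among Gli1-positive cells, Ptch1 was found in 3 of 6 and 0 of 2 at E11.5, and 4 of 6 and 11 of 11 had it a day later. Its share in all cells of these captures was 51.9%, 26.8%, 53.3% and 91.9%.

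Androgen synthesis genes differed in direction. Of 17 tested, 3 were at least 1 log2 unit higher without overlap (17.6%, against 7.03% of all genes) and 2 lower (11.8%, against 7.85%), and the median was -0.04. With a capture left out the median ran from -0.13 to 0.30. Hsd3b1, which makes the delta-4 steroids and whose promoter is shown above, averaged 12.7 and 2.43 RPKM at E11.5 and 64.3 and 49.2 RPKM at E12.5 (3.06 ± 0.56, adjusted p 0.201). In the first E12.5 capture 2 of 30 cells carried it, at a mean of 963 RPKM, and in the second 10 of 37, at 182 RPKM. Little of that level lay in wells 30 to 47, where it averaged 0.162 RPKM against 75.7 RPKM in the other wells. Cyp11a1, the side-chain cleavage enzyme that comes before it, averaged 11.2 and 21.7 RPKM and then 5.01 and 3.61 RPKM (-1.66 ± 0.61, adjusted p 0.552). Of Hsd3b1-positive cells, 1 of 6, 2 of 2, 1 of 2 and 2 of 10 had Cyp11a1, where 7.69%, 12.2%, 6.67% and 8.11% of all cells did. Sox9 was detected in 5 of 6, 2 of 2, 2 of 2 and 10 of 10 of them, where 75%, 39%, 53.3% and 91.9% of all cells had it.

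Cyp17a1, needed for androgens, was 0 and 4.94 RPKM and then 17.8 and 1.92 RPKM, with overlap (1.61 ± 0.94). Insl3, a Leydig cell hormone, was listed at 0 at E11.5 and detected in 2 cells of the first E12.5 capture only. Star, which carries cholesterol into mitochondria, differed by -1.56 ± 0.69 with overlap, and Por by -1.23 ± 0.63 without.

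Of 28 cholesterol synthesis and uptake genes tested, 20 had a difference below 0, 6 were at least 1 log2 unit lower without overlap (7.85% of all genes), 0 were higher, and the median was -0.47. Without wells 30 to 47 there were 7 lower and 1 higher. Soat1, which esterifies cholesterol, averaged 61.2 and 64.8 RPKM and then 21.4 and 24.8 RPKM (-1.41 ± 0.38, adjusted p 0.386). Insig1, a sterol sensor, averaged 31.9 and 15.7 RPKM and then 7.33 and 5.77 RPKM (-1.64 ± 0.49, adjusted p 0.428). Mvd and Pmvk of the mevalonate pathway differed by -1.80 ± 0.71 and -1.15 ± 0.48. The summed level of the list was 670 and 693 RPKM at E11.5 and 436 and 530 RPKM at E12.5.

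Among the components of the cord basement membrane, 5 of 20 were at least 1 log2 unit higher without overlap (25%, against 7.03% of all genes) and 0 were lower, with a median of 0.31. Without wells 30 to 47 there were 5 higher and 2 lower, and the median was 0.35. Type IV collagen, its network, was higher for Col4a2 (7.87 and 6.02 against 19.2 and 33.9 RPKM, 1.75 ± 0.60) and, named after its values were seen, for Col4a1 (10.1 and 18.9 against 24.4 and 38.2 RPKM, 1.09 ± 0.48). Nidogen 1 (Nid1), which links laminin to collagen IV, averaged 24.5 and 35.8 RPKM and then 70.4 and 62.3 RPKM (1.13 ± 0.36, adjusted p 0.465). Col18a1 and the laminin chain Lama1 were higher by 1.22 ± 0.44 and 1.24 ± 0.69. Other members were flat or lower, among them Nid2 (-0.92 ± 0.63), Col4a5 (-0.73 ± 0.66) and perlecan, Hspg2 (-0.30 ± 0.71). Without the first E12.5 capture the list's median was -0.04, with 3 higher and 2 lower, and without the second E11.5 capture it was 0.04.

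Of 22 interstitial matrix genes 3 were higher (13.6%, against 7.03%) and 2 lower (9.09%, against 7.85%) by the same description. Dcn, the proteoglycan decorin of stromal cells, averaged 43.9 and 15.7 RPKM and then 113 and 97.2 RPKM (1.95 ± 0.43, adjusted p 0.29), from 16, 8, 10 and 16 cells. Col6a1 was higher by 1.42 ± 0.56. Postn, periostin, averaged 12.2 and 11 RPKM and then 1.08 and 1.78 RPKM (-2.39 ± 0.88, adjusted p 0.552), and Fbn2 differed by -1.12 ± 0.48. Of 26 junction and polarity genes 1 was higher (3.85%, against 7.03% of all genes) and 4 lower (15.4%, against 7.85%). Without wells 30 to 47 the counts were 0 and 3. The higher gene was Krt19 (1.52 ± 0.81), which overlapped without wells 30 to 47 (1.09), and the lower ones were led by the epithelial keratin Krt8 (13.4 and 15.8 against 1.66 and 7.98 RPKM, -1.67 ± 0.67). Of 15 smooth muscle and peritubular genes 1, the myosin kinase gene Mylk, was higher (1.40 ± 0.63, 6.67% against 7.03%) and 0 were lower. The list's median was 0.00, and -0.54 to 0.39 with a capture left out.

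Of 19 interstitial progenitor genes 5 were higher (26.3%, against 7.03% of all genes) and 2 lower (beside 7.85% of all genes), with a median of -0.08. The median was 0.56, with 7 higher, without the first E12.5 capture and -0.27 without the second. Wnt5a, a secreted ligand of interstitial cells, averaged 15 and 22.8 RPKM and then 60.1 and 65.8 RPKM (1.71 ± 0.40, adjusted p 0.29) and was detected in 28 of 52, 18 of 41, 21 of 30 and 35 of 37 cells. Vcam1, an adhesion molecule, averaged 0.962 and 4.3 RPKM and then 10.8 and 28.9 RPKM (2.54 ± 0.95). Osr1, a factor of the intermediate mesoderm, averaged 6 and 4.39 RPKM and then 0.24 and 0.0879 RPKM (-2.40 ± 0.64, adjusted p 0.386). Nr2f1, a nuclear receptor of stromal cells, averaged 24.2 and 11.1 RPKM and then 3.75 and 5.37 RPKM (-1.67 ± 0.69), with 33, 22, 9 and 4 cells.

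Of 18 coelomic epithelium genes 4 were higher (22.2%, against 7.03% of all genes) and 1 lower (5.56%, against 7.85%), with a median of -0.09. Without wells 30 to 47 the counts were 3 and 2 and the median -0.32, and with a capture left out it ran from -0.18 to 0.15. The surface genes Upk1b, Gpm6a and Muc16 were higher, each from few cells. Upk1b averaged 0.0643 and 2.35 RPKM and then 8.47 and 53.3 RPKM (3.59 ± 0.86, adjusted p 0.322), from 1, 1, 4 and 9 cells. Gpm6a was listed at 0 and 0.00318 RPKM and then 9.82 and 18.5 RPKM, from 6 and 5 E12.5 cells (3.86 ± 1.0), and without wells 30 to 47 the difference was 2.70. Muc16 averaged 2.14 and 0 RPKM and then 20.5 and 9.03 RPKM (3.05 ± 0.78).

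Among activin and BMP genes, 4 of 29 were higher (13.8%, against 7.03% of all genes) and 3 lower (10.3%, against 7.85%), with a median of -0.13. Without wells 30 to 47 there were 3 higher and 5 lower. Inhba, the activin A subunit, averaged 0.0647 and 0 RPKM and then 5.42 and 12.6 RPKM (3.18 ± 0.56, adjusted p 0.186). It came from 4 and 3 cells at E12.5, and all 3 cells of the second capture lay in wells 30 to 47, without which the difference was 1.33. Sostdc1, a secreted antagonist of BMP and Wnt, was near 0 at E11.5 and averaged 2.47 and 57.9 RPKM at E12.5, from 1 and 13 cells (3.83 ± 1.09, adjusted p 0.413). Bmp4, a BMP ligand, averaged 9.07 and 12.6 RPKM and then 0.872 and 0.264 RPKM (-2.93 ± 0.68, adjusted p 0.29). Acvr2a, an activin receptor, was higher by 1.37 ± 0.67.

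FGF signalling had 2 of 16 genes higher and 1 lower, beside 7.03% and 7.85% of all genes, and 2 higher and 2 lower without wells 30 to 47. Fgf9, the ligand that keeps Sox9 on, overlapped between stages (8.78 and 12.3 against 24.9 and 11.3 RPKM, 0.65 ± 0.72). Fgf18 averaged 0.584 and 0.886 RPKM and then 6.69 and 11.2 RPKM (2.49 ± 0.85). The feedback inhibitors differed in sign, Spry4 by 1.11 ± 0.59 and Spry2 by -1.16 ± 0.54.

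Wnt and beta-catenin genes had 3 of 26 higher and 4 lower, beside 7.03% and 7.85% of all genes. The counts were 2 higher and 6 lower without wells 30 to 47, and 6 higher and 4 lower without the second E12.5 capture. Wnt4, which favours ovarian fate, averaged 10.1 and 11 RPKM and then 7.5 and 1.37 RPKM (-1.36 ± 0.77). Tcf7, a nuclear effector, averaged 4.58 and 5.83 RPKM and then 15.6 and 18.3 RPKM (1.53 ± 0.50), but 0.58 without wells 30 to 47. Of 16 ovarian supporting cell genes 1 was higher, Gng13 (1.23 ± 0.62), and 4 were lower (25%, against 7.85% of all genes), with a median of -0.52. Without the first E12.5 capture 0 were higher and 5 lower (median -0.84), and without the second 4 were higher and 3 lower (-0.23). Runx1 averaged 6.09 and 4.97 RPKM and then 1.09 and 0.31 RPKM (-1.98 ± 0.65), and Foxl2, which defines granulosa cells, was listed at 0 in all 4 captures.

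Of 14 Notch genes 3 were lower (21.4%, against 7.85% of all genes) and 0 higher, but without the first E12.5 capture 3 were higher and 4 lower. The ligand Jag1 averaged 12.3 and 7.6 RPKM and then 5.44 and 1.24 RPKM (-1.49 ± 0.62), the target Hey1 5.03 and 12.3 RPKM and then 0.797 and 2.83 RPKM (-1.77 ± 0.71), and Hes6 differed by -2.04 ± 0.85. Of 18 retinoic acid genes 4 were lower (22.2%, against 7.85%) and 1, Aldh1a1, was higher, with a median of -0.61. Without the first E12.5 capture 8 were lower (median -0.88), and without the second the median was -0.18. Dhrs3, which turns retinal back to retinol, averaged 195 and 184 RPKM and then 83.8 and 60.3 RPKM (-1.40 ± 0.49), and Stra6, a retinol importer, differed by -1.95 ± 0.82.

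Growth factor and chemokine genes had 2 of 26 higher (7.69%, against 7.03% of all genes) and 7 lower (26.9%, against 7.85%). Their median was -0.05, and -0.45 to 0.34 with a capture left out. Gdnf, a ligand that Sertoli cells make for germ cells, was listed at 0 in both E11.5 captures and averaged 3.25 and 7.71 RPKM at E12.5, from 3 and 6 cells (adjusted p 0.428). Ntf3, a neurotrophin, averaged 1.62 and 3.72 RPKM and then 7.4 and 35.3 RPKM (2.31 ± 0.72). Gfra3, a co-receptor for a ligand of the GDNF family, averaged 28.4 and 63.7 RPKM and then 5.17 and 0.466 RPKM (-3.86 ± 0.80, adjusted p 0.261), from 8, 16, 4 and 1 cells. Igf1 averaged 49.8 and 38.5 RPKM and then 5.99 and 21.3 RPKM (-1.85 ± 0.55).

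Cdkn1c, the imprinted inhibitor of cyclin-dependent kinases, was lower in both E12.5 captures. It averaged 367 and 440 RPKM at E11.5 and 124 and 102 RPKM at E12.5 (-1.83 ± 0.36, adjusted p 0.231). Nearly every E11.5 cell carried it, 51 of 52 and 41 of 41, and 25 of 30 and 30 of 37 at E12.5. The level over positive cells was also lower, 374 and 440 RPKM against 148 and 126 RPKM. Of 18 genes of CDK inhibitors and the Rb family 3 were lower (16.7%, against 7.85% of all genes) and 0 higher, with Cdkn1a at -1.44 ± 0.68. Of 20 genes of the Lin28 pathway and imprinted growth 4 were lower (20%, against 7.85%) and 0 higher: Igf2, the imprinted growth factor, differed by -1.01 ± 0.45, and Lin28b, named after its values were seen, was 3.42 and 3.33 RPKM and then 0.01 and 0 RPKM.

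Cell cycle genes rested in large part on the second E12.5 capture. Of 40 G2 and mitosis genes 36 had a difference above 0, 8 were at least 1 log2 unit higher without overlap (7.03% of all genes) and 0 lower, with a median of 0.70. Without wells 30 to 47 the median was 0.24, with 2 higher and 1 lower, and over captures it ranged from 0.21 without the second E12.5 capture to 1.35 without the first. Mki67, a proliferation marker, averaged 7.9 and 10.4 RPKM and then 17.6 and 33 RPKM (1.32 ± 0.46, and 1.05 without these wells). Top2a, a topoisomerase of dividing cells, averaged 30.3 and 44.8 RPKM and then 53.4 and 106 RPKM (1.01 ± 0.44, and 0.65). The share of cells with Mki67 differed by 8.62 percentage points, but by -1.01 without these wells. That of Top2a differed by 25.29 and by 23.83 points. Cells with at least 10 of the 40 genes numbered 12 of 52, 9 of 41, 11 of 30 and 29 of 37. S phase genes had a median of 0.41, with 1 of 35 higher (2.86%, against 7.03% of all genes), Cdc6 (2.15 ± 0.72, and 0.98 without the second E12.5 capture), and 1 lower, Gins4 (-1.56 ± 0.62). Their median was 0.78, with 9 higher, without the first E12.5 capture and 0.09, with 0 higher, without the second.

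The position genes of the HOX clusters had 2 of 24 higher (8.33%, against 7.03% of all genes) and 5 lower (20.8%, against 7.85%), and 9 lower without the second E11.5 capture. Hoxc5 averaged 8.97 and 4.33 RPKM and then 0.478 and 0.204 RPKM (-2.45 ± 0.70, adjusted p 0.413), and Hoxa4 2.37 and 0 RPKM and then 4.07 and 6.92 RPKM (1.79 ± 0.78).

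The genes with the largest negative differences had little signal at E12.5. Pnliprp1 and Pnlip, genes of pancreatic lipase type on chromosome 19 whose promoters are shown above, were found at E11.5. Pnliprp1 averaged 8.92 and 30.7 RPKM and then 0 and 0.0991 RPKM (-4.08 ± 0.68, adjusted p 0.161), and Pnlip 11.2 and 39 RPKM and then 0.569 and 0.918 RPKM (-3.67 ± 0.70, adjusted p 0.201). As a mean over captures, Pnliprp1 was detected in 9.24% of E11.5 cells and Pnlip in 20.7%, so these levels rest on few cells. Ces1h, a carboxylesterase gene, averaged 15.8 and 7.44 RPKM and was listed at 0 in all 67 E12.5 cells (adjusted p 0.161). Wfdc13, a gene of a protease inhibitor family, averaged 11.2 and 19.8 RPKM and then 0.00903 and 0 RPKM (-3.99 ± 0.62, adjusted p 0.149), all from 2 and 3 cells. Trpc7, a cation channel gene, averaged 21.3 and 22.5 RPKM and then 0.545 and 1.72 RPKM (-3.48 ± 0.77). Ces1h, Pnlip and Pnliprp1 belong to gene families, and how the authors assigned reads shared between copies is not given in the sources used here.

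Some of these genes were near 0 at the other stages of the series too. The E10.5 and E13.5 captures are labelled with more reads per cell, so depth differs along with stage in what follows. Pnlip averaged 0.00144 RPKM at E10.5 and 0.0617 and 0 RPKM at E13.5, Pnliprp1 0.381 and then 0 and 0 RPKM, and Calb1, a calcium-binding protein gene with 6.2 and 16 RPKM at E11.5, 0.00286 and then 0 and 0.00286 RPKM. Others of the 12 lowest had levels at other stages: Gfra3 averaged 49.9 RPKM at E10.5, and Efemp1, a matrix gene with -4.08 ± 0.86, averaged 17 RPKM in an E16.5 capture. Efemp1 was detected in a mean of only 5.32% of E11.5 cells and 1.35% of E12.5 cells. Of the 12 highest, Defb19, Cst9, Aldh1a1, Sostdc1, Upk1b and Inhba were above their lower E12.5 capture in both E13.5 captures. The others were not. Amh averaged 16.4 and 4.93 RPKM at E12.5 and 17.9 and 3.59 RPKM at E13.5. Serpinb9b, a serpin gene listed at 0 at E11.5 with 5.12 and 17.3 RPKM at E12.5, averaged 0 and 0.139 RPKM at E13.5.

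Most Sry-positive cells carried several of these genes. A set of 5 (Pnlip, Pnliprp1, Ces1h, Trpc7 and Wfdc13) was chosen after their values were seen, from the 12 lowest differences. At E12.5, 0 of 30 and 0 of 37 cells had at least 2 of the 5, which follows from choosing genes low at that stage. At E11.5, 6 of 52 and 12 of 41 cells had at least 2. Of the Sry-positive cells, 4 of 5 and 3 of 5 were among them, and the other 46 and 29 E11.5 cells held 1 and 2. Pnlip was found in 4 of 5 and 4 of 5 Sry-positive cells, where 9.62% and 31.7% of all cells had it. Gata4, a factor that acts on Sry, was found in 5 of 6 and 12 of 12 cells of the set and in 20 of 46 and 15 of 29 others, and Sox9 in 6 of 6 and 8 of 12 against 33 of 46 and 8 of 29. Kctd14 was found in 6 of 6 and 12 of 12, against 18 of 46 and 10 of 29. Nr2f1 went the other way, with 2 of 6 and 2 of 12 against 31 of 46 and 20 of 29. These are few cells of 2 captures, described without a test.

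The remaining lists bear on what else the sort could hold. Endothelial markers summed to 10.9 and 51.3 RPKM at E11.5 and 21.4 and 10.2 RPKM at E12.5, with 1 cell in each of 3 captures at 3 or more of the 16. The cell of the second E11.5 capture had 10 or more of these markers. Macrophage and blood markers summed to 7.11, 7.05, 2.11 and 9 RPKM, with C1qa and Cx3cr1 listed at 0 throughout, and erythroid markers to 0.404 to 4.9 RPKM. Mesonephric markers summed to 21.8, 23.1, 3.57 and 9.95 RPKM, and the higher E11.5 sums came mostly from Pax8 (9.6 and 2.46 against 0.983 and 0.0682 RPKM) and Calb1. Of the 6 tested, 3 had a difference above 0 and 3 below, and Epcam, named after its values were seen, was higher at E12.5 (1.68 ± 0.82). Adrenal cortex markers, which include the steroid enzymes, summed to 123, 70.1, 114 and 72.8 RPKM, and the Y-linked gene Ddx3y was found in all 4 captures (43.8, 35.7, 29.5 and 34.2 RPKM). Germ cell markers summed to 49.6, 25.7, 46.5 and 128 RPKM. The part of these cells in the differences above was not tested beyond leaving out wells 30 to 47 and cells with 3 or more germ cell markers.

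Genes that respond to dissociation and stress differed between captures of a stage: the list summed to 2575 and 904 RPKM at E11.5 and 1579 and 1217 RPKM at E12.5. Jun averaged 76.6 and 35.3 RPKM and then 28.6 and 11.7 RPKM (-1.45 ± 0.51), and Egr1 302 and 72.1 RPKM and then 397 and 313 RPKM (1.25 ± 0.52). Oxidative phosphorylation genes had a median of -0.05, with 0 of 35 apart by 1 log2 unit without overlap. Glycolysis genes had a median of -0.14 and ranged from -1.60 to 1.64, with 2 of 23 higher (8.7%, against 7.03% of all genes) and 3 lower (13%, against 7.85%), among them the glucose transporter gene Slc2a1 (18.7 and 32.3 against 16 and 5.47 RPKM, -1.29 ± 0.56).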

How the data were processed

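The authors deposited 1 table of RPKM per cell for 16459 genes, so read counts were not used. Builds named in the submitters' processing notes are GRCm38.p3 and mm10. For the aligner, counter and annotation, the sources used here give no name. The unit was read from the low entries. A depth was chosen for each cell at which its lowest entries, times exonic length in GENCODE M21, lay nearest to whole reads. At that depth 65.8% to 67.7% of low entries in the median cell of a capture lay within 0.05 of a read. This is too few to recover counts. Some of the same entries set the depth, so the share is no independent check. Of 56, 42, 30 and 46 labelled cells, 52, 41, 30 and 38 were in the file, and none fell under 3000 genes. No doublet caller was run. RPKM was averaged over the cells of each capture. limma 3.58.1 in R 4.3.3, with trend and robust settings, was run on log2(mean + 1), with stage as a factor over 9 captures (4 residual df), for genes at 1 RPKM or more in at least 2 captures. The limma steps were checked on simulated data.

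The members and gene lists were chosen with earlier results of these data known. Genes were named by a rule: the 12 largest differences each way among genes with no overlap between stages and at least 5 RPKM, up to 4 such genes per list, and 20 fixed genes. Alternatives were the pseudocount, filters, median-ratio scaling, means of log2 values, left-out captures and cells, and detection levels.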

Additional observations from a re-analysis of the deposited data

How the results depend on the processing

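The count of genes with an adjusted p under 0.05 in limma was 0, and was 5 with no filter on low values (Chrm4, F2rl2, Gm4064, Pnma1 and Sry), 1 with the mean of log2 values over cells (Ces1h), and 0 to 1 when captures were left out in turn (Aldh1a1 without the second E11.5 capture). Genes at an unadjusted p under 0.05 numbered 315 to 622 higher and 314 to 519 lower with a capture left out, and 306 lower with a filter at 5 RPKM. Genes without overlap by at least 1 log2 unit numbered 103 higher and 83 lower with a pseudocount of 10 RPKM, 200 and 175 with the mean of log2 values, 627 lower with the filter at 5 RPKM, and 1239 to 1656 higher and 1425 to 1590 lower with a capture left out, which leaves fewer captures to overlap.

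The median of the Sertoli list was 1.67 with a pseudocount of 0.1 RPKM, 0.31 with 10 RPKM, 0.33 with the mean of log2 values, 1.30 without cells with 3 or more germ cell markers, and 0.69 to 1.20 with a capture left out. With a pseudocount of 10 RPKM the medians were 0.12 for hedgehog signalling, 0.08 for the basement membrane, -0.24 for retinoic acid and -0.19 for cholesterol. With the mean of log2 values they were -0.20 for retinoic acid and -0.25 for cholesterol. With a capture left out they ranged from -0.04 to 0.34 for the basement membrane, -0.88 to -0.18 for retinoic acid, 0.21 to 1.35 for G2 and mitosis, -0.65 to -0.36 for cholesterol and 0.21 to 0.47 for hedgehog signalling.

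Of 126 named genes, 3 turned direction under any of 17 alternatives. Apart from the fixed genes, the named genes were chosen for having no overlap between the captures of both stages. Leaving out a capture or changing the pseudocount cannot turn the direction of such a gene. The low count therefore follows in part from the choice of genes and is no measure of how stable the directions are. The 3 that turned had overlapping captures. Gata4 was 0.55 with the mean of log2 values, 0.09 without cells with germ cell markers, 0.12 without wells 30 to 47 and -0.73 to 0.68 with a capture left out. Gli1 was -0.33 to 1.49 with a capture left out, the lowest without the second E12.5 capture. Sox9 was 0.55 with the mean of log2 values and -0.95 to 0.60 with a capture left out. The share of cells with Dhh was higher at E12.5 by 19.2 percentage points, by 10.48 at a detection level of 10 RPKM and by 26.9 for any value above 0. That of Sry differed by -10.9 points, and by -6.5 at 10 RPKM. The causes were not tested.

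No paired analysis was possible because capture numbers only name captures in order of date and pair none across stages. With 2 captures a stage, the number of captures limits what can be called, and rare cells limit the genes found in a few wells.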

Other observations

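Values between 0 and 1 RPKM were frequent for some genes and would change a count of positive cells. Counted at any value above 0, Aldh1a1 was present in 25% and 43.9% of E11.5 cells and in 80% and 91.9% of E12.5 cells, and Hsd3b1 in 33.3% and 43.2% of E12.5 cells. At 1 RPKM or more the first E12.5 capture had 33.3% for Aldh1a1 and 6.67% for Hsd3b1. At 10 RPKM or more Aldh1a1 was present in 7.69%, 19.5%, 26.7% and 81.1% of cells.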
